A study of Saccharomyces cerevisiae with 4 samples.

Results

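The seripauperin (PAU), DAN and TIR genes of Saccharomyces cerevisiae encode related proteins of the cell wall and cell surface, and 30 of the 5816 genes counted in the series carry these names: 24 PAU genes, 2 DAN genes (DAN1 and DAN4) and 4 TIR genes (TIR1 to TIR4). Members were taken by gene name, from families picked with earlier results of these data known; the names DAN2 and DAN3 are synonyms of PAU23 and PAU24 in the reference annotation. RNA was compared between a wild-type strain and a strain with a deletion of CHD1, both in the BY4741 background and both grown at 30 °C in YPD with shaking to mid-log phase, with 2 libraries of each genotype. Chd1 is a chromatin-remodelling ATPase that spaces nucleosomes over transcribed genes. Whether the 2 libraries of a genotype stem from separate cultures is not stated in the labels; the p-values cover the spread between these samples alone, and that spread may be technical.

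In yeast the DAN and TIR mannoproteins are best known from anaerobic growth, in which they take the place of the aerobic wall proteins Cwp1 and Cwp2. The activator Upc2 switches many of these genes on when oxygen and sterols run short, and the repressors Rox1 and Mot3, with the Tup1-Cyc8 corepressor, hold them down in air. TIR1 and TIR2, like their relative TIP1, are also known as cold-shock genes. Most PAU genes lie near chromosome ends and form one of the largest gene families of this yeast, with copies so alike that short reads often match several of them.

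CHD1 itself was counted 211 and 396 times in wild type and 7 and 3 times in the deletion, with the low counts in the libraries labelled as the deletion. Gene reads per library ranged from 2145684 to 4117998. Replicates were not one library deposited again: comparing their counts over genes gave a chi-square of 6.17 per degree of freedom for the wild-type pair and 2.50 for the deletion pair. Levels are in CPM, counts per 1e6 gene reads after TMM scaling, a correction for library composition, and are given as mean ± SD with n = 2. The test was edgeR's quasi-likelihood test over all genes, with Benjamini-Hochberg adjustment and a threshold of 0.05, except where another tool is named, and a log2 fold change is followed by its standard error.

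Many PAU genes are near copies of each other, so the first 60 coding bases of 6 PAU genes of equal length are shown, read from the R64 reference (the sacCer3 sequence), with capitals at the positions that differ from PAU1. PAU1 lies at chrX:8776-9138 on the minus strand, PAU14 at chrIX:8793-9155 on the minus strand, PAU6 at chrXIV:781918-782280 on the plus strand, PAU18 at chrXII:13083-13445 on the minus strand, PAU12 at chrVII:1080306-1080668 on the plus strand and PAU2 at chrV:63728-64090 on the plus strand.
PAU1: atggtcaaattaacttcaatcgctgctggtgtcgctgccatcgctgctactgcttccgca
PAU14: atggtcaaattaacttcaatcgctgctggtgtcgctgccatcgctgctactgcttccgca
PAU6: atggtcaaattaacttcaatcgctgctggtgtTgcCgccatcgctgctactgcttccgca
PAU18: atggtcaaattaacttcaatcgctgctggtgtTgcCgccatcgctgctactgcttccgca
PAU12: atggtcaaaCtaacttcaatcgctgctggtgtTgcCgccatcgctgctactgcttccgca
PAU2: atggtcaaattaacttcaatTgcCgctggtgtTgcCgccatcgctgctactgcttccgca

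PAU6 and PAU18 differ from PAU1 at 2 of these bases, PAU12 at 3 and PAU2 at 4, while PAU14 does not differ. Over whole coding sequences, the 22 PAU genes other than the short PAU7 and PAU9 formed 231 pairs with a median identity of 85.3%. Of these pairs, 70 were at least 95% identical, and 3 pairs were identical throughout: PAU1 with PAU14, PAU6 with PAU18, and PAU21 with PAU22. PAU7 and PAU9 have 168 and 129 coding bases. The DAN and TIR genes are less alike, and their closest pair, TIR1 and TIR2, was 72.7% identical. The start of that pair is shown because TIR1 is the member that changed, with capitals where TIR2 differs from TIR1, at 7 of 60 bases. TIR1 lies at chrV:175248-176012 on the plus strand and TIR2 at chrXV:346195-346950 on the minus strand.
TIR1: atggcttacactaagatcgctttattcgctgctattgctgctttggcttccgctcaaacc
TIR2: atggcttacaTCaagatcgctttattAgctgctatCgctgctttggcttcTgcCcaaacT

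The counts of exact copies bear on how reads with several matching positions were treated. PAU21 and PAU22 were each counted 2 and 1 times in wild type and 0 and 1 times in the deletion, and PAU1 and PAU14 each had 2 reads, all in deletion replicate 1. PAU6 had 3, 4, 5 and 2 reads and PAU18 2, 3, 5 and 2, in the order wild-type replicates 1 and 2 and deletion replicates 1 and 2, which is the order used throughout. The same held at higher counts outside the family: CUP1-1 and CUP1-2, exact coding copies of a metallothionein gene, both had 254, 356, 639 and 317 reads. Of 23 pairs of exact coding copies outside the family with at least 100 reads each, 21 had totals within 5% of each other. Some of these pairs share a gene, as among ASP3-1 to ASP3-4, and are not independent. The exceptions were YLR156W and YLR159W, with 642 and 644 reads, each paired with YLR161W at 47502 reads. Why YLR161W differs was not tested. For most copies, a read that fits several of them appears to have been counted at each. A sum over PAU genes can thus count 1 read more than once.

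TIR1, which encodes a serine- and alanine-rich mannoprotein, rose in cells without CHD1 and was the 1 member of the 6 tested that passed. It was counted 42 and 54 times in wild type and 193 and 125 times in the deletion, or 20.7 and 19.4 CPM against 44.9 and 46.7 CPM. Both deletion libraries lay above both wild-type libraries, by more than the spread within either genotype. The mean went from 20.1 ± 0.92 to 45.8 ± 1.27 CPM, a 2.28-fold increase (log2 fold change 1.19 ± 0.17, adjusted p = 0.000214). By size of change TIR1 ranked 17 among the 92 genes called higher, and by p-value 13. Over all 5488 genes tested 4.74% were called, 1.68% higher and 3.06% lower. A median log2 fold change of 0.17 over the 6 tested members stood beside 0.004 over all tested genes. DESeq2 gave none of the 6 an adjusted p under its own filter on low counts. With that filter turned off, a choice made after seeing the data, DESeq2's adjusted p for TIR1 was 0.00144.

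TIR1 shared none of its 50-base coding windows with any other place in the genome, and its neighbours did not pass the test. The neighbours are YER010C, 1909 bases away, whose log2 fold change was -0.01 ± 0.15 (adjusted p = 0.977), and PRE1, a proteasome subunit gene 1822 bases away, with a value of 0.02 ± 0.14 (adjusted p = 0.956).

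**Figure D1:**
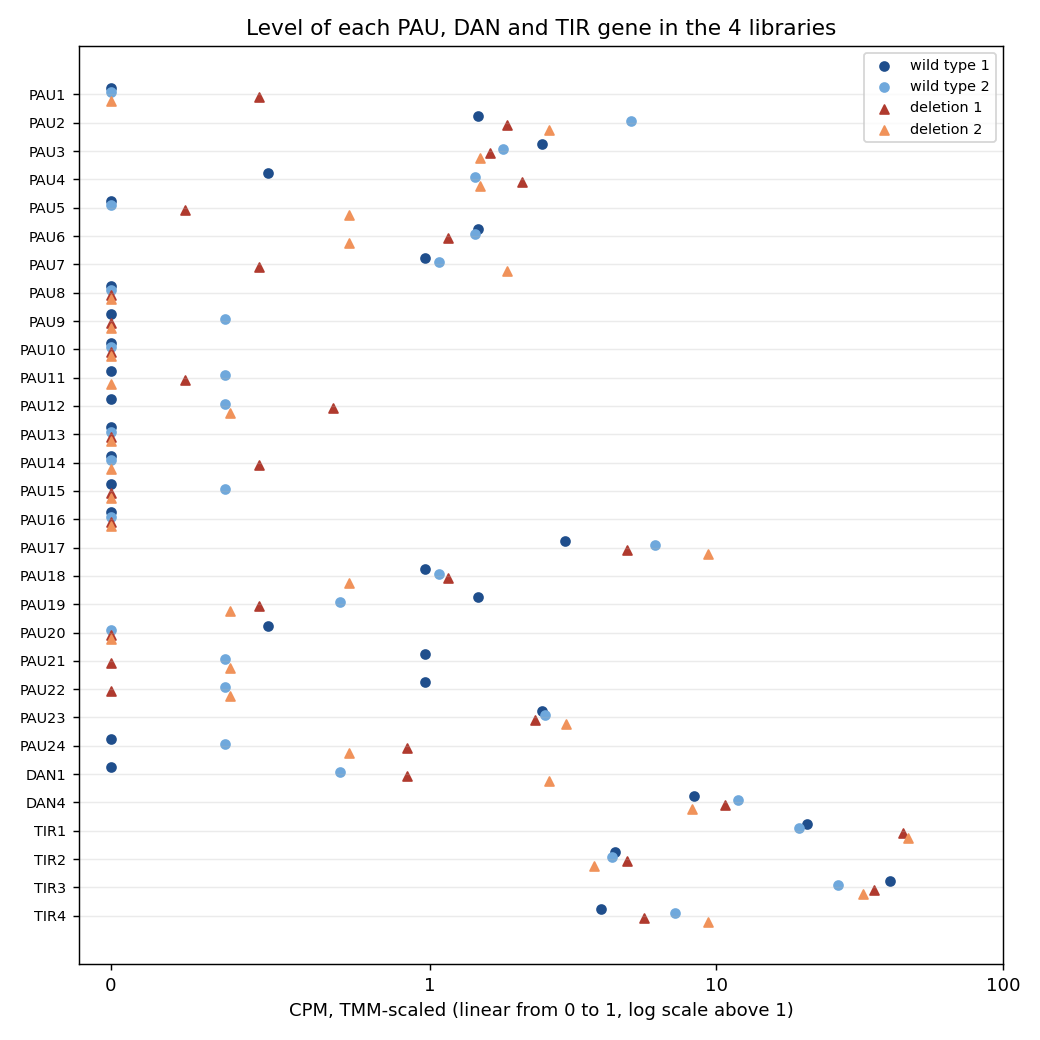
Level of each of the 30 PAU, DAN and TIR genes in the 4 libraries, in CPM on an axis that is linear from 0 to 1 and logarithmic above 1; circles are wild-type and triangles deletion libraries. TIR1 is the gene whose 2 deletion values (44.9 and 46.7 CPM) stand clear of its 2 wild-type values (20.7 and 19.4 CPM) at a level well above 1 read, and most PAU genes sit near 0.

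The other 3 TIR genes did not pass. TIR3 (chrIX:333727-334536), the most highly expressed member with TIR1, was counted 82, 74, 152 and 87 times, or 40.5 and 26.6 CPM in wild type and 35.4 and 32.5 CPM in the deletion. The wild-type values spanned those of the deletion, and the log2 fold change was 0.06 ± 0.19 (adjusted p = 0.900). TIR2, adjacent to TIR4 on chromosome XV, had 9, 12, 21 and 10 reads, or 4.44, 4.32, 4.89 and 3.74 CPM, with overlapping groups (0.02 ± 0.38, adjusted p = 0.985). TIR4 (chrXV:344335-345798) had 8, 20, 24 and 25 reads, or 3.95, 7.19, 5.58 and 9.34 CPM. These groups also overlapped, and the log2 fold change of 0.28 ± 0.37 (adjusted p = 0.734) had a standard error larger than itself.

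Ratios within a library do not depend on how libraries were scaled. TIR1 took 29.8% (95% Wilson interval 22.9 to 37.8) and 33.8% (26.9 to 41.4) of the reads of the 4 TIR genes in wild type, and 49.5% (44.6 to 54.4) and 50.6% (44.4 to 56.8) in the deletion. The intervals of the 2 genotypes did not overlap; they cover counting error only. Per feature length, TIR1 stood at 0.511 and 0.728 of TIR3 in wild type and at 1.27 and 1.43 of it in the deletion, so the order of these top members turned. On the log2 scale the ratio of TIR1 to TIR3 reads was higher by 1.14 in the deletion, beside SDs of 0.36 for the wild-type and 0.13 for the deletion pair. A two-sided exact permutation test gave p = 0.333, the smallest that 2 libraries against 2 allow.

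**Figure D2:**
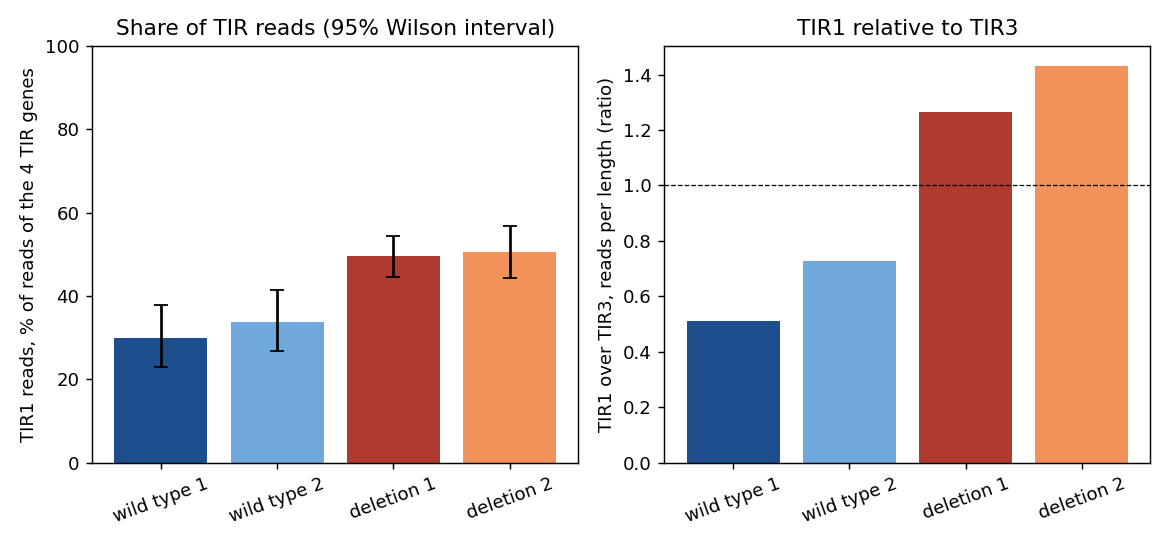
Left, TIR1 reads as a percentage of the reads of the 4 TIR genes in each library, with 95% Wilson intervals; right, TIR1 over TIR3 in reads per feature length, with the dashed line at equal levels. Both measures were higher in the 2 deletion libraries, where TIR1 took 49.5% and 50.6% of the TIR reads.

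DAN1 and DAN4, cell-wall mannoprotein genes 2547 bases apart on chromosome X, were low in all 4 libraries. DAN4 (chrX:712255-715740) was counted 17, 33, 46 and 22 times, or 8.39, 11.9, 10.7 and 8.22 CPM. Its groups overlapped and it did not pass, with a log2 fold change of -0.09 ± 0.28 (adjusted p = 0.900). DAN1 (chrX:708811-709707) had 0, 2, 4 and 7 reads and was left out by the filter on low counts. Both DAN1 values of the deletion, 0.931 and 2.62 CPM, lay above those of wild type, 0 and 0.719 CPM, on a total of 13 reads. The nearest gene, YJR149W, ends 436 bases from DAN1 on the other strand and was itself called higher, from 20.2 and 23.7 to 47.2 and 59.8 CPM (log2 fold change 1.24 ± 0.18, adjusted p = 0.000242). Whether reads from YJR149W reach the counted length of DAN1 was not tested.

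Of the 24 PAU genes, PAU17 alone had enough reads for the main test. PAU17 (chrXII:94747-95121) was counted 6, 17, 21 and 25 times, or 2.96, 6.12, 4.89 and 9.34 CPM. The groups overlapped, and the log2 fold change of 0.47 ± 0.41 did not pass (adjusted p = 0.572). Over the fits that gave PAU17 an adjusted p it ranged from 0.036 to 1.16, with no call in any. PAU2 and PAU23, next in reads, had 3, 14, 8 and 7 reads and 5, 7, 10 and 8 reads. For both the lowest and highest CPM overlapped between genotypes, at 1.48 and 5.04 CPM for PAU2 in wild type against 1.86 and 2.62 CPM in the deletion, and at 2.47 and 2.52 against 2.33 and 2.99 CPM for PAU23. In all, 21 PAU genes had under 10 reads in every library, and 15 had 0 reads in at least 1 library.

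PAU8, PAU10, PAU13 and PAU16 had 0 reads in all 4 libraries. A count of 0 allows up to 3 reads, or 1.48 and 1.08 CPM in the wild-type and 0.698 and 1.12 CPM in the deletion libraries, for counting error only. The remaining PAU genes left out of the main test were PAU1, PAU3, PAU4, PAU5, PAU6, PAU7, PAU9, PAU11, PAU12, PAU14, PAU15, PAU18, PAU19, PAU20, PAU21, PAU22 and PAU24. Among these PAU3 had most reads, at 5, 5, 7 and 4, and PAU4 had 1, 4, 9 and 4. PAU24 had 0, 1, 4 and 2 reads, PAU5 0, 0, 1 and 2, and PAU19 3, 2, 2 and 1. PAU20 had 1 read, in wild-type replicate 1. In CPM, PAU4, PAU5, PAU12 and PAU24 had both deletion values above both wild-type values. PAU3, PAU6 and PAU19 had both below. PAU18, whose coding sequence is identical to that of PAU6, overlapped between genotypes. Separation of 2 libraries from 2 has a two-sided exact permutation p of 0.333. The share of all genes that separate in this way was not counted, so these orders are a description only. No count of PAU5, PAU12 or PAU19 exceeded the 3 reads that a count of 0 allows. The main test left out counts this low. In the fit that kept every gene with at least 1 read, 26 members were tested and TIR1 was the 1 called.

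Summed over the 24 PAU genes, reads numbered 35, 66, 82 and 65, or 17.3, 23.7, 19.1 and 24.3 CPM. The sums overlapped, with means of 20.5 ± 4.58 CPM in wild type and 21.7 ± 3.68 CPM in the deletion and a log2 ratio of 0.08. With each exact copy counted once, as was decided after seeing the equal counts, the log2 ratio was 0.11. The 2 DAN genes summed to 8.39 and 12.6 CPM in wild type and 11.6 and 10.8 CPM in the deletion. The 4 TIR genes summed to 69.6 and 57.6 CPM in wild type and to 90.7 and 92.3 CPM in the deletion, a log2 ratio of 0.53. Without TIR1 the other 3 summed to 48.9 and 38.1 against 45.8 and 45.6 CPM, and the log2 ratio was 0.072. All 30 members together took 0.00900% and 0.00924% of gene reads in wild type against 0.0127% and 0.0131% in the deletion, and their log2 ratio of 0.40 was 0.078 without TIR1.

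**Figure D3:**
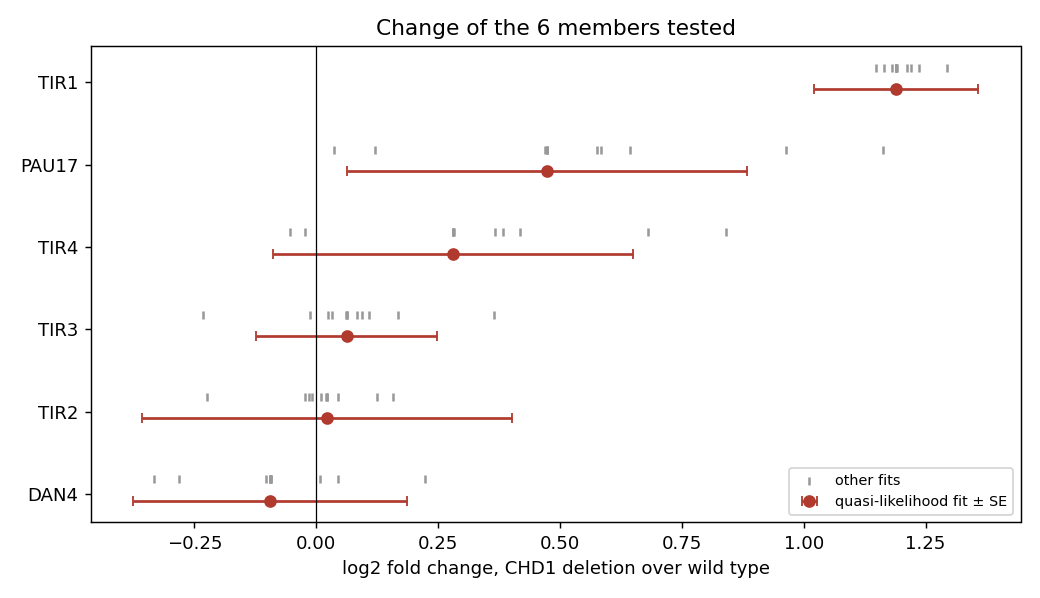
Log2 fold change of the 6 members in the main test, deletion over wild type. Red points with bars are the quasi-likelihood fit with its standard error and grey ticks the other fits that gave an adjusted p; TIR1 lay between 1.15 and 1.29 in all of these, while TIR2, TIR3, TIR4 and DAN4 had ticks on both sides of 0.

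Per length the members fell into 2 tiers. TIR3 and TIR1 averaged 34.8 and 33.9 reads per kb per 1e6 reads (RPKM) over the 4 libraries, at the 61.1 and 60.2 percentile of all genes, where the median gene had 24.8. For TIR1 this mean pools unlike genotypes. TIR1 had 21.3 and 19.96 RPKM in wild type, below that median, and 46.15 and 47.99 RPKM in the deletion. PAU17 followed at 5.19, TIR2 at 4.39, TIR4 at 3.58, PAU2 at 3.34 and PAU23 at 3.26 RPKM; neighbours in this order overlapped between libraries. DAN4, which is long, averaged 1.81 RPKM and DAN1 1.0 RPKM. In all, 27 of the 30 members lay below the 10th percentile of all genes, and the PAU median was at the 1.15 percentile.

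Position and sequence sharing went together across the PAU genes. Of the 24, 19 lie within 20 kb of a chromosome end and 5 lie farther in (PAU2, PAU5, PAU7, PAU17 and PAU23), as do all DAN and TIR genes. The 19 near an end had 0 to 21 reads over the 4 libraries, with a median of 2, and shared a median of 78.0% of their 50-base coding windows with another place in the genome, with a range from 39.0% to 100%. The 5 farther in had 3 to 69 reads, with a median of 30, and shared a median of 8.59%, from 0% to 35.0%. Read length is not given in the sources used here, so the 50-base window is a round choice. Near an end, reads of a gene and reads of its copies cannot be told apart where the sequence is shared. Between genotypes the sum near an end was 9.38 and 8.99 CPM in wild type and 9.31 and 6.72 CPM in the deletion, and the sum of the 5 farther in was 7.90 and 14.8 against 9.77 and 17.6 CPM; both pairs overlapped. Of 159 other tested genes within 20 kb of an end, 3 were called higher and 12 lower, with a median log2 fold change of -0.12. That is 9.43% called, beside 4.74% of all genes tested, and the cause was not tested. The smallest p-values among them were those of PHO12, PHO11 and PHO89, all lower. FET4, COS5 and COS12, which are also in the lists below, are among the genes called here.

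**Figure D4:**
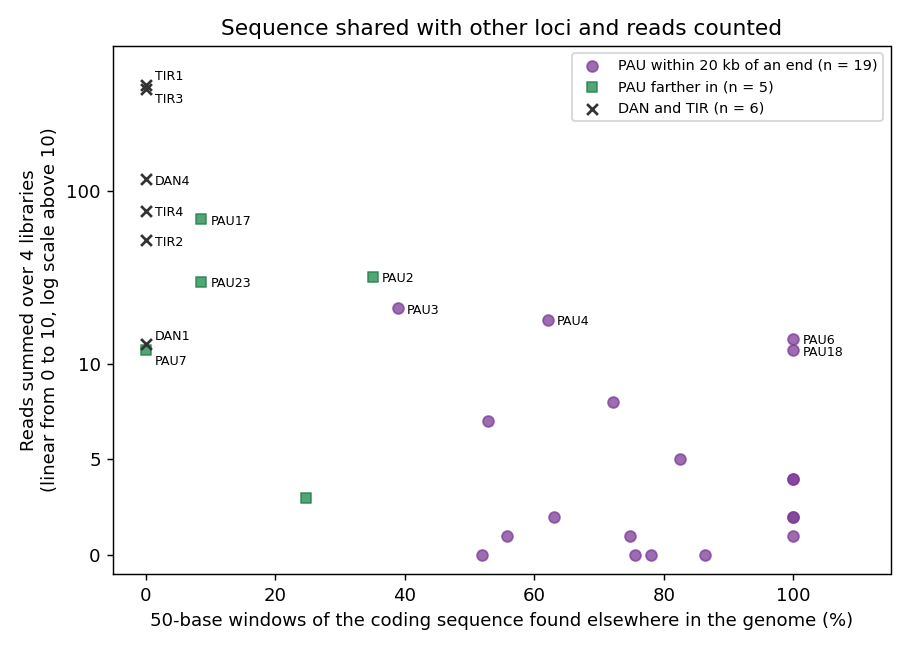
Reads of each member summed over the 4 libraries (linear from 0 to 10, logarithmic above 10) against the percentage of 50-base windows of its coding sequence that occur elsewhere in the genome. The PAU genes within 20 kb of a chromosome end share 39.0% or more of their windows and have at most 21 reads, and the TIR and DAN genes share none.

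The regulators of these genes gave no call in edgeR's main test, and up to 2 calls in other fits. Of 10 listed (UPC2, ECM22, SUT1, HAP1, ROX1, MOT3, TUP1, CYC8, MGA2 and SPT23), 0 rose and 0 fell in edgeR's quasi-likelihood test. Over all genes tested 4.74% were called, and so short a list can hold 0 calls at that share. DESeq2 called 0 with its filter on low counts on or off. In edgeR's test 2 were below 0.05 before adjustment. Those 2 were HAP1, the haem-responsive activator, at 0.35 ± 0.10 (adjusted p = 0.0531), and MGA2, an activator of OLE1, at 0.32 ± 0.11 (adjusted p = 0.117). HAP1 was called higher in 5 other fits: by limma-voom (adjusted p = 0.0480), with total gene counts, the stricter filter or the replicate block, and without wild-type replicate 1. In the fits that did not call it, other than the main one, its adjusted p ranged from 0.0523 to 0.359. MGA2 was called higher with total gene counts and CYC8, a corepressor subunit gene, without wild-type replicate 2. UPC2 had 56, 81, 112 and 67 reads and stood at -0.15 ± 0.17 (adjusted p = 0.687). ROX1 had 51, 64, 118 and 68 reads and stood at 0.15 ± 0.18 (adjusted p = 0.704).

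Other hypoxic and anaerobic genes changed in both directions. Of 14 tested, 4 rose and 3 fell, beside 1.68% of all genes tested called higher and 3.06% called lower. The other 7 did not pass, and the median log2 fold change over the 14 was -0.05. DESeq2 called 1 higher and 1 lower but gave COX5B no adjusted p; with its filter off it called 2 higher, COX5B included (adjusted p = 0.0462). OLE1, the fatty acid desaturase gene, went from 401 ± 14.7 to 664 ± 4.46 CPM (0.73 ± 0.10, adjusted p = 9.34e-05). COX5B, whose product replaces its aerobic counterpart in cytochrome oxidase, rose by 0.89, HEM13 of haem synthesis by 0.52 and the phospholipase B gene PLB2 by 0.41. FET4, a low-affinity metal transporter gene, fell by 0.77 (adjusted p = 0.000560). AUS1, which encodes a sterol importer of anaerobic cells and is the neighbour of TIR2, fell by 0.69 (adjusted p = 0.0372), and ARE1, which encodes a sterol acyltransferase, by 0.58. PDR11, the other sterol importer gene and the neighbour of TIR3, was at -0.07 ± 0.22 and did not pass.

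Among wall proteins of aerobic cells, 3 of 13 tested genes rose (23.1%, beside 1.68% of all genes tested), 0 fell and 10 did not pass in edgeR's test. Before adjustment 4 were below 0.05. DESeq2 called 2 higher and 0 lower and gave SPI1 no adjusted p. With its filter off DESeq2 called 3 higher, SPI1 included (adjusted p = 0.0288). TIP1, a relative of the TIR genes, went from 120 ± 4.04 to 212 ± 8.35 CPM (0.82 ± 0.11, adjusted p = 9.34e-05). CWP1 went from 51.5 ± 6.53 to 96.5 ± 11.4 CPM (0.88 ± 0.14, adjusted p = 0.000679), and SPI1, a stress-induced wall protein gene, rose by 0.94. CWP2 had a log2 fold change of 0.14 ± 0.10 and did not pass (adjusted p = 0.469).

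Telomeric silencing genes gave 0 calls among 11 tested in edgeR's test. So short a list can hold 0 calls at the 4.74% called over all genes tested. DESeq2 called 0 with its filter on or off. In edgeR's test 1 was at an unadjusted p under 0.05. That one was SET1, the histone H3K4 methyltransferase gene, at 0.32 ± 0.14 (adjusted p = 0.208), followed by RIF2 at 0.43 ± 0.22 (adjusted p = 0.287). In the COS family, another set of alike subtelomeric genes, COS12 rose by 1.91 from 2 and 5 to 26 and 13 reads (adjusted p = 0.0279), COS5 fell by 0.49 (adjusted p = 0.0476) and 10 of 12 did not pass. That is 16.7% called, beside 4.74% of all genes tested. DESeq2 called 0, with no adjusted p for COS12 until its filter was off (adjusted p = 0.375). With the replicate block, and without wild-type replicate 2, 4 were called lower: COS2, COS3, COS5 and COS7. Of the 12 genes of these lists that were called, OLE1, FET4, CWP1 and TIP1 kept their call in every other fit, and the other 8 lost it in at least 1. Without deletion replicate 2, COX5B lost its call, and without deletion replicate 1 SPI1 and AUS1 did. HEM13 and PLB2 lost theirs without either deletion replicate and in DESeq2, and PLB2 also without wild-type replicate 2. ARE1 and AUS1 lost theirs with total gene counts, ARE1 also in DESeq2 and without wild-type replicate 2 or deletion replicate 2, and AUS1 also without wild-type replicate 1 and in DESeq2 with its filter off. COS12 lost its call in each fit without 1 library. COS5 lost it with total gene counts, the stricter filter and DESeq2, and without deletion replicate 1, deletion replicate 2 or wild-type replicate 1.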

How the data were processed

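Total RNA of the 4 libraries was extracted with hot acid phenol and sequenced on an Illumina HiSeq instrument from a small-RNA library kit, per the labels' protocols. CASAVA 1.8, TopHat and the build sacCer3 appear in the submitters' processing notes. How reads were assigned to genes, with or without strand, and read length: not given in the sources used here. Each deposited table gives a whole-number count of reads for every gene and the feature length, per the file headers. A normalized read number, a length-scaled signal that the authors deposited beside the counts, was not used, nor were the intron tables. Of 5816 gene identifiers, 5810 were found in the R64 annotation, whose sequence is that of sacCer3 and which gave positions and sequences (RefSeq).

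All genes were fitted with edgeR 4.0.16 in R 4.3.3: TMM factors (0.945, 0.984, 1.04 and 1.03), the filterByExpr filter at a minimum count of 10, quasi-likelihood test, genotype as the only term, Benjamini-Hochberg adjustment over 5488 genes. The standard error is the log2 fold change divided by the square root of F. DESeq2 1.42.0 and limma-voom (3.58.1) were alternatives. The fit was also run on counts simulated from the means of these data and the fit's own dispersions. No result here rests on that run. The gene lists were written from general knowledge of yeast; FRD1 was not matched to the tables. Named are the members called, the 5 with the highest RPKM, the DAN and TIR genes, and in each list the genes called and the 2 with the smallest p; UPC2, ROX1, CYC8, CWP2, PDR11, COS2, COS3, COS7, YJR149W, PAU2, PAU23 and single low-count PAU genes were named after their values were seen. The members and lists were chosen with earlier results of these data known.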

Additional observations from a re-analysis of the deposited data

How the results depend on the processing

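The call of TIR1 was kept in each of the 12 other fits that gave its adjusted p, with log2 fold changes from 1.15 to 1.29 and adjusted p from 3.09e-08 to 0.00144, and no other member was called in any of them, among up to 26 tested. Scaling by total gene counts shifted the median of all genes from 0.004 to 0.11 and the calls to 176 higher and 65 lower. DESeq2 called 32 higher and 123 lower and, without its filter, 37 higher and 93 lower. Leaving out 1 library gave 58 to 213 genes higher and 70 to 364 lower. The log2 ratio of summed CPM over all members was 0.50 with total gene counts and 0.078 without TIR1; that of the TIR genes was 0.072 without TIR1. Without 1 library, the PAU ratio ranged from -0.13 to 0.34. The cause of these shifts was not tested. With the replicate block, 165 genes were higher and 259 lower, and TIR1 was again the 1 member called; the labels give same-numbered libraries no shared culture or day, and their deviations had a correlation of 0.02, which does not establish whether they share one. In the fits without 1 library the lone sample was assumed to vary like the other genotype's pair. At this depth PAU17 was the 1 PAU gene with reads enough for the main test.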
